A study of Mus musculus with 72 samples.

Results

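The two-cell-like Zscan4 programme was followed here through 7 genes: Zscan4c, Zscan4d, Zscan4f, Tcstv1, Tcstv3, Tmem92 and Zfp352. They were chosen by symbol, through the Ensembl transcripts of the deposited count files, and all 7 were found among the 45407 genes of those files. Tcstv1 held 17 counts over all samples and did not pass the filter on low counts, so 6 of the 7 were tested among 18279 genes. The study measured messenger RNA of control and Nup133-deficient mouse embryonic stem cells. Nup133 belongs to the Y-complex, which scaffolds the nuclear pore. Cells were collected as pluripotent cells (day 0), after culture in N2B27 medium to day 2, and at day 3 after a further 24 h with 1 µM retinoic acid, a path towards neuroectoderm. Genotype and day make 6 groups of 3 biological samples, and each sample was sequenced as 4 technical replicates that were added up here.

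The controls were 2 separate samples of HM1 (40 chromosomes, XY) and 1 of line 1A4, a blastocyst-derived line with a Sox1gfp/+ allele (40 chromosomes, XY). The knockouts were lines 14 and 19, Nup133-/- derivatives of HM1 made with CRISPR/Cas9, and line 319, a blastocyst-derived Nup133merm/merm, Sox1gfp/+ line. Line 14 is labelled with 40 XY chromosomes and line 19 as likely so. Line 319 is labelled with 42 chromosomes, XX, with an extra chromosome 8 and an extra chromosome 12, and none of the 7 genes lies on those or on X. The 3 knockout samples of a day are therefore 3 lines, whereas 2 of the 3 controls are samples of 1 line. All cells had been grown on inactivated feeder fibroblasts in serum and LIF, and feeders were removed by plating before day 0. Gene counts per sample ranged from 16.5 M to 54.4 M (M, 1000000). Nup133 matched the labels: its highest knockout level was 37.1 CPM (counts per 1000000 counts) and its lowest control level 179.5 CPM.

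As background, a small share of mouse embryonic stem cells passes at any time through a state that resembles the embryo at the 2-cell stage, when the zygotic genome is first transcribed. Dux is a transcription factor that starts this state, and Zscan4 proteins, zinc finger and SCAN domain factors linked to telomere maintenance, are its best known markers. Tcstv1 and Tcstv3 are members of a family of 2-cell transcripts that is clustered in the genome, and Zfp352 encodes a zinc finger protein of the same stage. Tmem92 encodes a transmembrane protein and is used as a marker of the state. Because few cells of a culture are in the state, its transcripts are scarce in bulk RNA, and more cells in the state cannot be told apart from more RNA per cell.

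The Zscan4 genes are near copies of each other, which bears on every value given for them. On GRCm38 (GENCODE M21), Zscan4c is at chr7:11005745-11010547 on the plus strand, Zscan4d at chr7:11161374-11166159 on the minus strand and Zscan4f at chr7:11397915-11402318 on the plus strand. Each of the 3 transcripts has 4 exons. Zscan4c and Zscan4d were 97.1% identical over their transcripts, Zscan4c and Zscan4f 97.3%, and Zscan4d and Zscan4f 95.5%. Of all words of 100 bases in a transcript, 70.4% occurred in no other gene for Zscan4d, 27.2% for Zscan4c and 10.5% for Zscan4f. The counts of Zscan4c and Zscan4f can thus hardly be kept apart from those of other copies, and the levels of the single genes are uncertain. How reads that match several places were counted is not given in the sources used here. The 7 Zscan4 genes and pseudogenes in the files were therefore also added up, as were Tcstv1, Tcstv3 and their relative Gm20767.

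The other members are better separated. Tcstv1 (chr13:119893467-119894746, minus strand) and Tcstv3 (chr13:120317567-120318076, plus strand) each have 1 exon. Their identity was 94.1% over the 510 bases of Tcstv3, and 95.9% and 94.4% of their 100-base words were their own. Tmem92 (chr11:94777217-94782703, minus strand, 5 exons) had 100% of such words to itself. Zfp352 (chr4:90218820-90225702, plus strand, 2 exons) had 99.4%, and the rest matched its pseudogene Zfp353-ps. None of the 7 genes overlaps another annotated gene.

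The promoters of the Zscan4 members are printed because they show how alike the copies are upstream of the genes that moved together. They are the 250 bases before the RefSeq start (GRCm38.p6), 5′ to 3′ on the strand of the gene, and RefSeq entries were matched for 4 of the 7 members. Capitals mark TATAAA and TGATTCAA, both searched on both strands. TATAAA is the core of a TATA box, and TGATTCAA is a part of the longer sequence known to be bound by Dux. The latter was chosen after these promoters had been read.
Zscan4c, chr7:11005495-11005744, plus strand: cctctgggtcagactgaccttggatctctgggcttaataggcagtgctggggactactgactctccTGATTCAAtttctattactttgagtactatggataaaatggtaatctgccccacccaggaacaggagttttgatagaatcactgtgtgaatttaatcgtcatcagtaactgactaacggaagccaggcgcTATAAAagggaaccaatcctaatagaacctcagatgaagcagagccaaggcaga
Zscan4d, chr7:11166149-11166398, minus strand: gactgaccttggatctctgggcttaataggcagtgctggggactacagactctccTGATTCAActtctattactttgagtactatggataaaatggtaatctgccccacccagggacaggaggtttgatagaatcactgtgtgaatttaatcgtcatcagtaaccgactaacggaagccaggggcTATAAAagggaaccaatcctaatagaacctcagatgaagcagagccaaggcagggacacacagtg
Zscan4f, chr7:11397665-11397914, plus strand: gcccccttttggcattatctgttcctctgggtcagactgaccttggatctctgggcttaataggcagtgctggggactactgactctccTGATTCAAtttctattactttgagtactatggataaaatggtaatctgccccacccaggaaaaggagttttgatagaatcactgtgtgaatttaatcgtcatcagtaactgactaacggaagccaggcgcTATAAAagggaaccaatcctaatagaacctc

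Zscan4c and Zscan4f differed at 2 of 277 bases when the RefSeq promoter windows, which run 50 bases past the start, were aligned (99.3% identity), Zscan4c and Zscan4d at 8 of 289, and Zscan4d and Zscan4f at 7 of 266. TATAAA ended 49, 60 and 26 bases before the RefSeq start of Zscan4c, Zscan4d and Zscan4f. TGATTCAA ended 177, 188 and 154 bases before it. Over 32851 mouse promoters of the same length, 12.4% held TATAAA and 0.539% held TGATTCAA on either strand. TGCACAC, a sequence known to be bound by Zscan4 protein itself and found in 3.67% of promoters, was also searched and matched none of the 4 member promoters. The promoter of Zfp352 is printed for its contrast with these, with a repeated word of 10 bases in capitals that was found 9 times, at a spacing of 20 or 21 bases. It held neither of the motifs above, and the repeated word occurs in 0.0426% of the promoters. These matches describe letters only, and no binding was measured.
Zfp352, chr4:90218570-90218819, plus strand: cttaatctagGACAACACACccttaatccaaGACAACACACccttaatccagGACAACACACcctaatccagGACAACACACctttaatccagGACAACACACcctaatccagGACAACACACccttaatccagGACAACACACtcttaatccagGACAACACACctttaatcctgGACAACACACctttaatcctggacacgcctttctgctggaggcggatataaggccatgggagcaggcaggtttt

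In the control cells the programme was lower after day 0 and stayed low, whereas in the knockout cells it was low at day 2 and higher at day 3. The 7 genes summed to 4.86 ± 2.02 CPM in controls at day 0, 1.30 ± 0.704 CPM at day 2 and 1.09 ± 0.606 CPM at day 3 (SD, n = 3). In knockouts the sums were 8.10 ± 2.37 CPM, 2.42 ± 0.560 CPM and 9.59 ± 8.64 CPM. The day 3 knockout samples ranged from 4.33 to 19.6 CPM, and the highest was line 319. Even there the 7 genes held 19.6 of each 1000000 counts, so all values rest on few counts. Set against day 0, Zscan4d and Tmem92 were higher at day 3 in 2 of 3 knockout lines. Zscan4c, Zscan4f and Zfp352 were higher in 1 of 3, and Tcstv3 in 0 of 3.

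**Figure D1:**
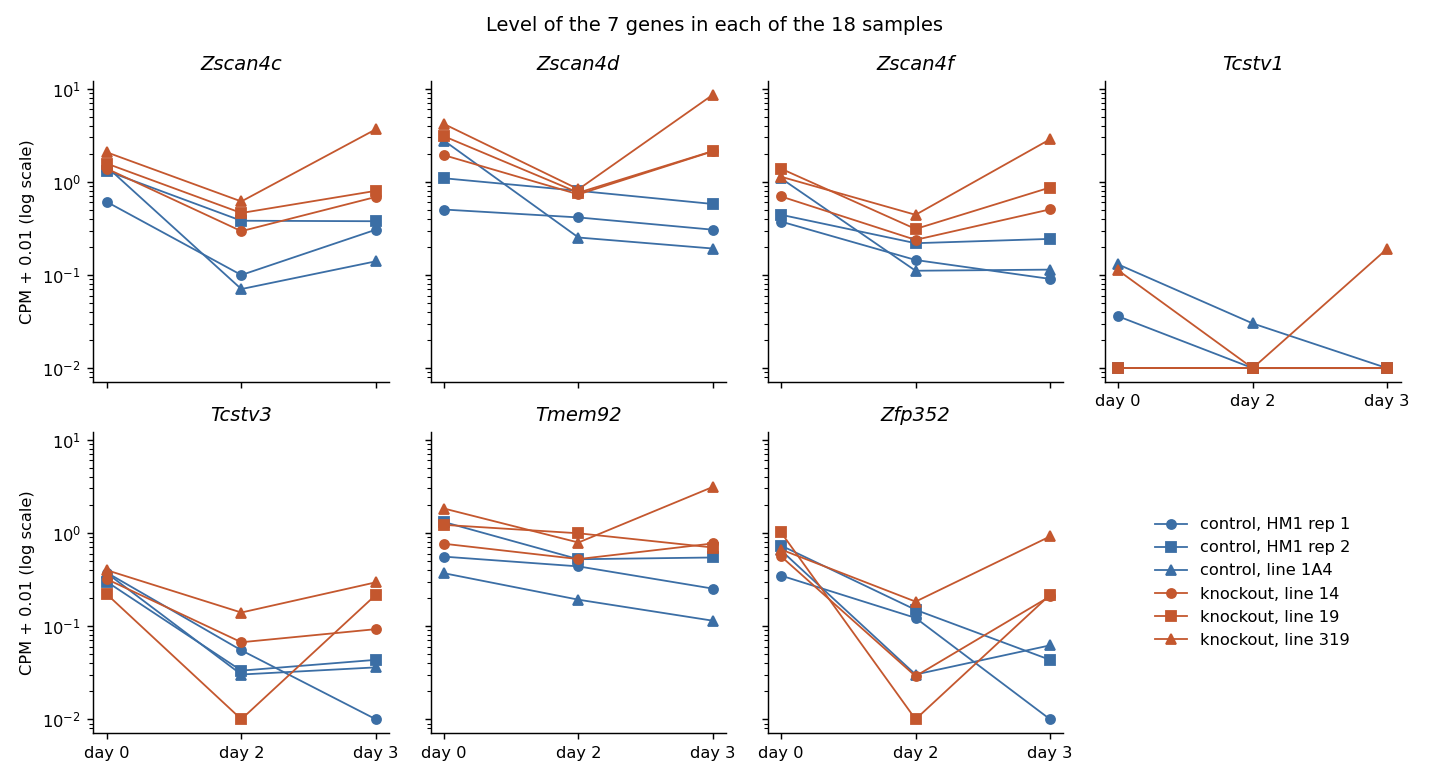
Levels of the 7 genes (CPM plus 0.01, log scale) against day, 1 line per series of samples, controls in blue and knockouts in orange. At day 3 the knockout points of the 6 tested genes lie above all control points, with line 319 the highest, and at that day Tcstv1 is above 0 in line 319 alone.

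Per length of transcript, the order of the members differed between groups. In controls at day 0 the levels were 0.661 ± 0.0829 CPM per kb for Tcstv3, 0.635 ± 0.516 for Zscan4d and 0.488 ± 0.197 for Zscan4c (SD, n = 3). Tmem92 followed with 0.359 ± 0.243 CPM per kb, then Zscan4f with 0.341 ± 0.215, Zfp352 with 0.249 ± 0.0885 and Tcstv1 with 0.0379 ± 0.0492. Neighbours in this order lay within the sum of their SDs, except Zfp352 and Tcstv1. In knockouts at day 3 Zscan4d came first with 1.88 ± 1.64 CPM per kb, before Zscan4f (0.765 ± 0.692), Zscan4c (0.749 ± 0.740) and Tmem92 (0.743 ± 0.673). Tcstv3 had 0.375 ± 0.200 CPM per kb there, Zfp352 0.192 ± 0.178 and Tcstv1 0.0472 ± 0.0817, and no neighbours in this order differed beyond their spread.

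Zscan4d, the Zscan4 member with the most sequence of its own and the most counts (1213 over all samples), is described first. At day 0 the controls had 0.494 CPM (HM1, first sample), 1.08 CPM (HM1, second sample) and 2.75 CPM (line 1A4), and the knockouts 1.92 CPM (line 14), 3.07 CPM (line 19) and 4.16 CPM (line 319). The genotypes overlapped at that day. At day 2 the same series had 0.404, 0.790 and 0.242 CPM in controls and 0.722, 0.754 and 0.821 CPM in knockouts, again with an overlap. At day 3 the controls had 0.296, 0.568 and 0.182 CPM and the knockouts 2.12, 2.13 and 8.59 CPM, so every knockout line lay above every control. Zscan4d was lower at day 3 than at day 2 in 3 of 3 control series and higher in 3 of 3 knockout lines.

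Zscan4c and Zscan4f had the same shape in knockouts. In controls they differed from Zscan4d, as both were higher at day 3 than at day 2 in 2 of 3 series. Zscan4c at day 0 had 0.598, 1.30 and 1.44 CPM in controls and 1.37, 1.56 and 2.06 CPM in knockouts, in the same order of samples. At day 2 it had 0.0899, 0.372 and 0.0606 CPM in controls and 0.285, 0.452 and 0.605 CPM in knockouts. At day 3 it had 0.296, 0.367 and 0.130 CPM in controls and 0.677, 0.790 and 3.65 CPM in knockouts. The genotypes overlapped at days 0 and 2 and not at day 3. Zscan4f had 0.364, 0.433 and 1.08 CPM in controls and 0.686, 1.37 and 1.12 CPM in knockouts at day 0. At day 2 it had 0.135, 0.209 and 0.101 CPM against 0.228, 0.302 and 0.432 CPM, and at day 3 0.0807, 0.234 and 0.104 CPM against 0.496, 0.858 and 2.85 CPM. For Zscan4f the knockouts lay above the controls at both later days. How many of all genes were separated so at day 2 was not counted.

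Added over all copies, Zscan4 in controls was at 6.26 ± 3.86 CPM at day 0, 1.66 ± 0.935 CPM at day 2 and 1.35 ± 0.578 CPM at day 3 (SD, n = 3). In knockouts the sum was 11.6 ± 3.64 CPM, 2.93 ± 0.497 CPM and 14.5 ± 12.8 CPM. At day 3 the single values were 1.13, 2.00 and 0.911 CPM in controls and 6.71, 7.45 and 29.3 CPM in lines 14, 19 and 319. At day 0 these lines had 7.78, 12.1 and 15.0 CPM, so only line 319 was above its day 0 level at day 3. The groups did not overlap at day 3. This sum does not depend on how reads were divided among the copies it holds. It can still depend on reads divided with genes outside it. Zscan4c shared 100-base words with 9 other genes, and not all of these are in the sum. The sum would also lack reads that were left out because they match several places.

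The Tcstv genes held the fewest counts over all samples, 17 for Tcstv1 and 106 for Tcstv3. Tcstv3 held 14, 12 and 9 counts in the controls at day 0 and 9, 9 and 19 in the knockouts. At day 2 it had 2, 1 and 1 counts against 3, 0 and 3, and at day 3 it had 0, 1 and 1 against 5, 6 and 11. Tcstv1 was above 0 in 5 of 18 samples, which were those of line 1A4 at days 0 and 2, the first HM1 sample at day 0, and line 319 at days 0 and 3. Its highest value was 7 counts in line 319 at day 3, where the controls held 0 counts. The summed Tcstv copies had 0.0269, 0.0668 and 0.0260 CPM in controls at day 3 and 0.496, 0.687 and 0.699 CPM in knockouts, and here line 319 did not stand apart from lines 14 and 19.

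Tmem92 was called by edgeR in none of the 10 comparisons with all samples, while DESeq2 called it at day 3 (adjusted p = 0.0123), as did edgeR without the day 2 sample of line 19 (adjusted p = 0.0446). It had 0.546, 1.30 and 0.359 CPM in controls and 0.754, 1.21 and 1.82 CPM in knockouts at day 0, and the genotypes overlapped. At day 2 it had 0.427, 0.511 and 0.182 CPM against 0.513, 0.980 and 0.778 CPM, and at day 3 0.242, 0.534 and 0.104 CPM against 0.760, 0.687 and 3.10 CPM. The lowest knockout lay above the highest control at both later days. At day 2 these were 0.513 CPM in line 14 and 0.511 CPM in the second HM1 sample. The share of all genes separated so at day 2 was not counted. Zfp352 had 0.338, 0.721 and 0.638 CPM in controls and 0.549, 0.999 and 0.653 CPM in knockouts at day 0. At day 2 it held 5, 6 and 1 counts in controls and 1, 0 and 4 in knockouts, and at day 3 it held 0, 1 and 2 counts against 12, 6 and 35. Zfp352 therefore went from overlapping groups at day 2 to separate ones at day 3.

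At day 0 and at day 2 no member was called between knockout and control cells (adjusted p below 0.05 in edgeR's quasi-likelihood test). The day 0 comparison asks whether loss of Nup133 alters pluripotent cells. There, 0 of 6 members passed, where 0.853% of all genes did, and none had an unadjusted p below 0.05. Their log2 fold changes ran from -0.21 (Tcstv3) to 1.21 (Zscan4d), and 5 of 6 were positive. For Zscan4d the log2 fold change was 1.21 ± 0.58 (SE, adjusted p = 0.492). At day 2, 0 of 6 passed against 1.6% of all genes, again with none at an unadjusted p below 0.05 and with values from -0.66 (Zfp352) to 1.22 (Zscan4c). DESeq2 also called 0 members at either day. The medians of 0.66 and 0.97 are given beside 0.01 and 0.02 for all genes tested.

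At day 3, after retinoic acid, 4 of the 6 tested members were higher in knockout cells: Zscan4d, Zscan4f, Tcstv3 and Zfp352. Of all genes tested, 5.18% passed in either direction. The log2 fold change was 3.39 ± 0.67 for Zscan4d (SE, adjusted p = 0.0116) and 3.13 ± 0.62 for Zscan4f (adjusted p = 0.0114). It was 3.06 ± 0.75 for Tcstv3 (adjusted p = 0.0309) and 3.70 ± 0.95 for Zfp352 (adjusted p = 0.0364). Zscan4c, at 2.47 ± 0.70 (adjusted p = 0.0513), and Tmem92, at 2.34 ± 0.73 (adjusted p = 0.0738), did not pass. Both had an unadjusted p below 0.05, as did 4005 of the 18279 genes tested. In 6 of 6 tested members all knockout samples lay above all controls, as was so for 17.6% of all genes tested. The median log2 fold change was 3.09 over the 6 members and 0.02 over all genes.

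The folds of the 2 scarcest called members rest on controls with at most 3 counts each, and are better read from the counts. Tcstv3 had 22 counts in the knockouts against 2 in the controls, a depth-adjusted ratio of 9.05 with a 95% interval of 2.22 to 79.4. Zfp352 had 53 against 3 counts, a ratio of 14.5 with an interval of 4.71 to 72.7. These exact intervals cover counting error only and not the spread between lines. Summed over copies, the day 3 log2 fold change was 3.21 ± 0.59 for Zscan4 (adjusted p = 0.0084) and 3.94 ± 0.56 for Tcstv (adjusted p = 0.0020).

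**Figure D2:**
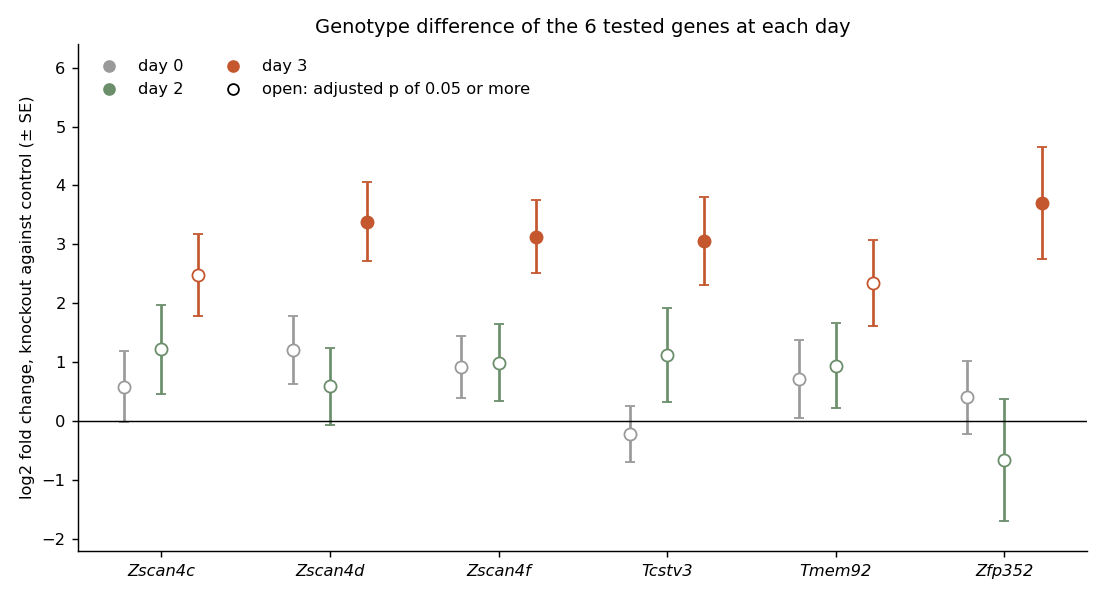
Log2 fold change of knockout against control cells with its SE for the 6 tested genes at days 0, 2 and 3, filled where the adjusted p was below 0.05. The filled points are Zscan4d, Zscan4f, Tcstv3 and Zfp352 at day 3, between 3.06 and 3.70, and the day 0 and day 2 points lie between -0.66 and 1.22.

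The size and the call at day 3 depended on which lines were compared. Without line 319, the line with the highest levels of each tested member, 2 of 6 members passed (Zscan4d at 2.69, adjusted p = 0.0256, and Zscan4f, adjusted p = 0.0297). Tmem92 had a log2 fold change of 1.00 and Zscan4c one of 1.37 without that line. In the HM1-derived lines alone 1 of 6 passed, Zscan4d at 2.30 (adjusted p = 0.0252). Without the first or the second HM1 series 0 of 6 passed, with lowest adjusted p-values of 0.0990 and 0.0629, and without line 1A4 1 of 6 passed, again Zscan4d. Without line 14 or without line 19, 3 of 6 passed. DESeq2's Wald test on all samples called 6 of 6. The log2 fold changes of the 6 members were positive under each of these.

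Line by line, each knockout was set against the controls of its own background, the mean of both HM1 samples for lines 14 and 19 and line 1A4 for line 319. For the summed Zscan4 copies the ratios at day 0 were 1.88 in line 14, 2.92 in line 19 and 1.43 in line 319. At day 2 they were 1.27, 1.27 and 4.23, and at day 3 they were 4.28, 4.75 and 32.2. Lines 14 and 19 had nearly equal ratios at days 2 and 3, and line 319 had a higher one at both. The control of line 319 is 1 sample, which held 35 counts of Zscan4 copies at day 3. Tmem92 had ratios of 1.96, 1.77 and 29.8 at day 3. Zscan4d had ratios of 4.90, 4.93 and 47.2, the last against 7 counts in line 1A4.

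**Figure D3:**
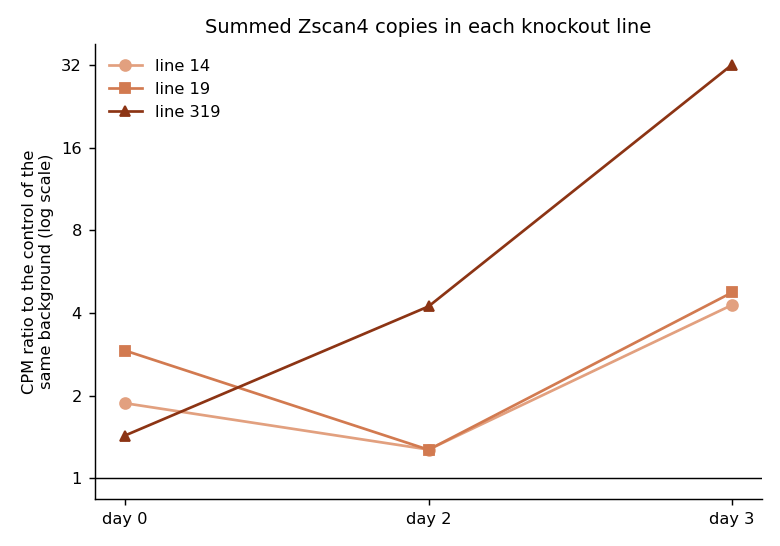
Ratio of the summed Zscan4 copies in each knockout line to the control of its background (log scale) at days 0, 2 and 3. Lines 14 and 19 go from 1.27 at day 2 to 4.28 and 4.75 at day 3, and line 319 goes from 4.23 to 32.2.

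From day 0 to day 2, as the cells left pluripotency, most members fell in both genotypes. In controls 4 of 6 fell, where 35.2% of all genes changed in either direction. The log2 changes were -3.42 ± 0.62 for Tcstv3 (SE, adjusted p = 0.00062), -2.59 ± 0.70 for Zscan4c (adjusted p = 0.0094), -2.59 ± 0.75 for Zfp352 (adjusted p = 0.0139) and -1.90 ± 0.60 for Zscan4f (adjusted p = 0.0221). Zscan4d, at -1.34 ± 0.63, and Tmem92, at -1.02 ± 0.69, did not pass. In knockouts 5 of 6 fell, all but Tmem92, where 35.9% of all genes changed. These 5 changes ran from -1.83 (Zscan4f) to -3.65 (Zfp352), and Tmem92 had -0.79 ± 0.68. The 6 tested members were lower at day 2 in 3 of 3 series of either genotype. The share of all genes that did so was not counted, and the Zscan4 members share sequence. Fewer members passed without the first HM1 series (1 in controls), without line 1A4 (2 in controls), without line 14 (0 in knockouts) or without line 19 (2 in knockouts).

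From day 2 to day 3, the step that includes retinoic acid, 4 members rose in knockouts and no single member was called in controls. In controls 0 of 6 members were called by edgeR or DESeq2, none had an unadjusted p below 0.05, and 21.4% of all genes changed. The control changes ran from -1.66 (Zfp352) to 0.59 (Zscan4c). In knockouts the 4 were among 6 tested, where 33.6% of all genes changed. The log2 changes were 2.29 ± 0.63 for Zscan4d (SE, adjusted p = 0.0118), 1.99 ± 0.58 for Zscan4f (adjusted p = 0.0156), 2.70 ± 0.89 for Zfp352 (adjusted p = 0.0294) and 1.84 ± 0.67 for Zscan4c (adjusted p = 0.0462). Tcstv3, at 1.36 ± 0.64, and Tmem92, at 1.02 ± 0.68, did not pass. The summed Tcstv copies rose in knockouts (1.25 ± 0.44, adjusted p = 0.041) and fell in controls (-2.03 ± 0.62, adjusted p = 0.0296). The summed Zscan4 copies rose in knockouts (2.15 ± 0.56, adjusted p = 0.0088) and were not called in controls (-0.34 ± 0.57, adjusted p = 0.719). Zscan4c, Zscan4d, Zscan4f, Tcstv3 and Zfp352 were higher at day 3 than at day 2 in 3 of 3 knockout lines, and Tmem92 in 2 of 3. The share of all genes higher in 3 of 3 lines was not counted. Without line 319 1 member passed (Zfp352 at 3.49, adjusted p = 0.0309), and 2 passed without line 14, without line 19, without the day 2 sample of line 19 or without the first HM1 series.

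Whether the genotype difference itself changed between days was tested in the same fit, and no single member passed. For day 3 minus day 0, 0 of 6 passed, where 0.427% of all genes did, with adjusted p-values from 0.143 to 0.611. The estimates were all positive, from 1.62 (Tmem92) to 3.30 (Zfp352). An unadjusted p below 0.05 was reached by 4 of 6, and by 1986 of all 18279 genes tested. For the summed Tcstv copies the estimate was 3.55 ± 0.70 (adjusted p = 0.0376), and for the summed Zscan4 copies it was 2.24 ± 0.78 (adjusted p = 0.261). For day 2 minus day 0, 0 of 6 passed against 0.0219% of all genes, with adjusted p-values of 0.784 and above and none below 0.05 unadjusted. For day 3 minus day 2, a comparison added after the data were seen, 0 of 6 passed against 0.0383% of all genes. In this comparison 3 of 6 had an unadjusted p below 0.05, as did 1626 of all 18279 genes. Its estimates ran from 1.26 (Zscan4c) to 4.36 (Zfp352), and DESeq2 called 0 members in each of these 3 comparisons. The courses of the genotypes after day 2 are therefore given as values of each genotype, and their difference did not pass the test.

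Other genes of the same programme were taken from a list of 50 that holds further Zscan4 copies, Usp17l deubiquitinases, Pramef and Tdpoz genes and similar 2-cell transcripts. Of these, 46 were matched in the files and 27 passed the filter. At day 3, 16 of the 27 were higher in knockout cells and 1, Pramef12, was lower, where 5.18% of all genes were called (501 higher and 446 lower of 18279). The median log2 fold change was 2.62, beside 0.02 for all genes. At days 0 and 2 none of the 27 was called, with medians of 0.83 and 0.69. From day 2 to day 3 in knockouts 17 of 27 rose and 2 fell, where 33.6% of all genes changed (3227 of 18279 rose). In controls 2 of 27 rose over that step, where 21.4% of all genes changed (2288 rose). From day 0 to day 2, 10 of 27 fell in controls, where 35.2% of all genes changed (2841 fell), and 14 of 27 fell in knockouts, where 35.9% changed (2768 fell). Without line 319 10 of 27 were called higher (median 1.50), without line 1A4 5 of 33, and without the first or the second HM1 series 0 of 28, with medians of 2.53 and 3.15. Several of the 16 are copies that share sequence with members or with each other, so they are not independent of them.

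**Figure D4:**
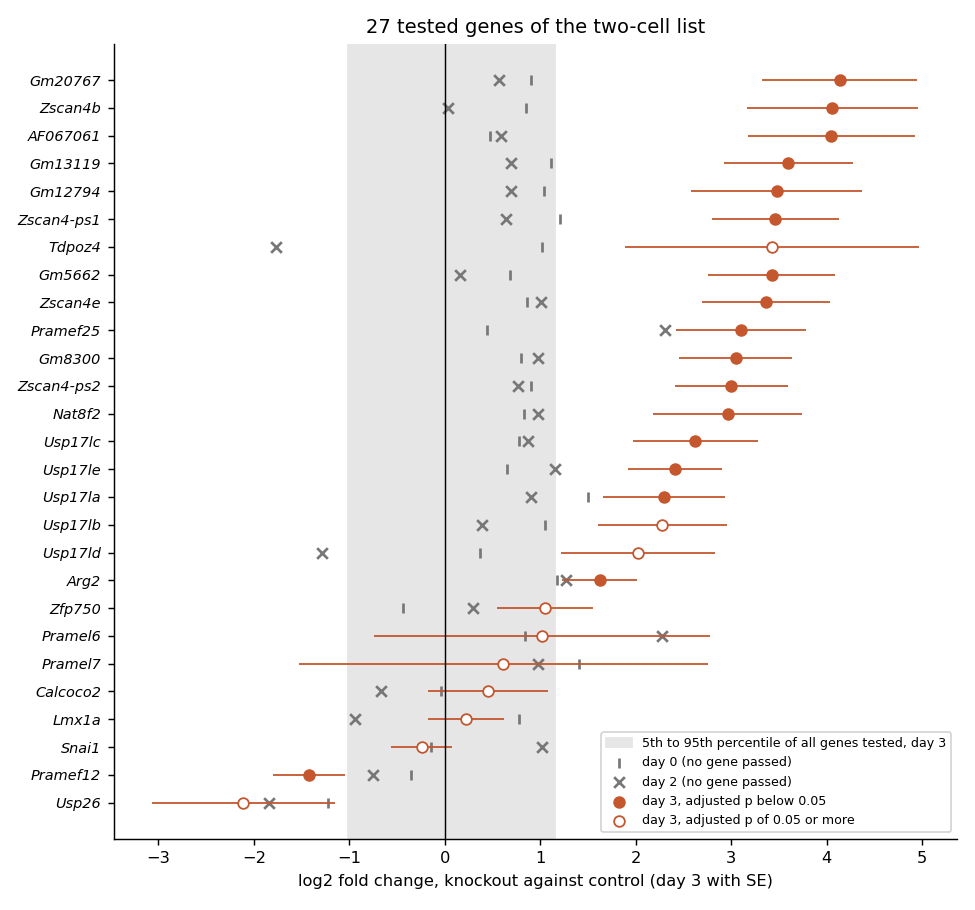
Log2 fold change of knockout against control cells for the 27 tested genes of the two-cell list, at day 3 with SE (filled where the adjusted p was below 0.05) and at days 0 and 2 as grey marks. The grey band spans the 5th to the 95th percentile of all genes tested at day 3, 16 filled points lie to its right, and Pramef12 is the filled point to its left.

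Among the called genes of that list with the highest mean level, Zscan4-ps1, a Zscan4 pseudogene, was at 0.306 ± 0.146 CPM in controls and 3.92 ± 3.37 CPM in knockouts at day 3 (SD, n = 3), a log2 fold change of 3.46 ± 0.66. Arg2, a mitochondrial arginase, was at 1.60 ± 0.346 against 4.98 ± 1.11 CPM. Its log2 fold change was 1.62 ± 0.39, and it also rose from day 2 to day 3 in controls (log2 change 2.34 ± 0.44). Usp17le was at 0.409 ± 0.163 against 2.31 ± 1.35 CPM, a log2 fold change of 2.41 ± 0.49. The predicted genes Gm8300, Gm5662, Gm12794 and Gm13119 had log2 fold changes of 3.05, 3.42, 3.48 and 3.60. Pramef12 went the other way. It was at 20.1 ± 3.78 CPM in controls and 8.68 ± 5.99 CPM in knockouts, a log2 fold change of -1.42 ± 0.38 (adjusted p = 0.0410). Pramef12 lost its call without the background term (adjusted p = 0.168), without the filter on low counts (0.0776) and with only the samples of that day (0.0669). It also lost it without the first or second HM1 series, line 14 or line 19, with adjusted p-values from 0.0785 to 0.242. Each other gene named here also lost its call without the first or the second HM1 series, with adjusted p-values from 0.0617 to 0.211. Gm12794 lost it as well without the filter on low counts (0.0674) and with only the samples of that day (0.0739).

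Of the known upstream regulators, 0 of 11 tested activators and 1 of 27 tested repressors were called between genotypes at day 3, where 5.18% of all genes were called, so their share was not above that of all genes. Duxf3, the gene of Dux, was listed at 0 in all 18 samples, as were Duxbl1, Tdpoz5 and Pramef8, among others of the two-cell list. How reads that match several places were counted is not given, so this 0 does not show that Dux was silent. Of 12 activators of the state, 11 were tested and 0 were called between genotypes at day 0, 2 or 3. At day 3 Dppa2, a chromatin factor that acts upstream of Dux, was between 9.77 and 12.6 CPM in controls and between 5.77 and 36.0 CPM in knockouts, a log2 fold change of 0.51 ± 0.40. Dppa4, its partner, was at 29.3 ± 4.31 against 27.4 ± 12.2 CPM (SD, n = 3), and Trp53, the gene of p53, at 175 ± 10.1 against 178 ± 9.82 CPM. Dppa3 was at 8.22 ± 1.62 against 3.12 ± 1.73 CPM (-1.30 ± 0.41, adjusted p = 0.0771). These 4 genes were chosen for their known role after their values were seen. From day 0 to day 2, 8 of the 11 activators fell in each genotype, where 35.2% of all genes changed in controls and 35.9% in knockouts, in either direction. Of 27 repressors, among them Trim28, Setdb1 and subunits of a Polycomb complex, the 1 called at day 3 was Max. Max was higher in knockouts, at 66.9 ± 6.83 against 45.8 ± 2.09 CPM (0.54 ± 0.15, adjusted p = 0.0476), and no repressor was called at day 0 or 2.

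The genes whose levels ran most like the members included many other genes of the two-cell list, some of them Zscan4 copies. Likeness was measured as Pearson's r between a gene's centred log2 (CPM + 0.5) and the mean of the 6 tested members over the 18 samples, which share lines and days. It is a description of the shape over time and lines. The 10 highest genes with a full symbol were Usp17lc (r = 0.977), Zscan4b (0.952), Zscan4e (0.948), Hoxa10 (0.929), Usp17la (0.918), Hdc (0.915), Usp17lb (0.901), Usp17ld (0.881), Abcb5 (0.877) and Clec16a (0.869). Of the 50 most alike genes, 16 belong to the 27 tested of the two-cell list and 27 have predicted or clone names. The median r was 0.859 for the two-cell list and 0.0016 for all genes. Zscan4b and Zscan4e had only 21.4% and 16.3% of 100-base words of their own. The likeness of such copies is not independent of the members, and they are counted in these values. Among the 15 pairs of members r ran from 0.545 (Tmem92 and Tcstv3) to 0.967 (Zscan4d and Zscan4f), and the latter pair shares sequence.

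Of the genes beside the members, 2 of the 12 tested near the Tcstv genes were called at day 3, and 0 of the 27 near Tmem92. Of all genes, 5.18% were called, and the neighbours are too few to set against that share. Within 500 kb of the Zscan4 members the files hold 18 genes besides the Zscan4 copies, and within 500 kb of Zfp352 they hold 5, none of which passed the filter. Around the Tcstv genes 12 other genes were tested, and AF067061 and Gm21761 were higher in knockouts, with Gm21761 at 0.593 ± 0.471 CPM in controls and 3.03 ± 0.170 CPM in knockouts (SD, n = 3). AF067061 belongs to the two-cell list, and Gm21761 shares sequence with the Tcstv relative Gm20767.

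Marker lists of other cell types were summed in each sample to see what else moved with the members, and calls are again beside 5.18% of all genes at day 3. The 6 pluripotency markers summed to 3521 to 3806 CPM in controls at day 0 and to 447.5 to 513.7 CPM at day 3. In day 3 knockouts their sum ranged from 257.8 to 551.5 CPM, and 0 of 6 were called between genotypes. For the 5 primitive endoderm markers the sum at day 3 was 18.1 to 27.3 CPM in controls and 46.0 to 47.9 CPM in knockouts, where Gata4 and Pdgfra were called higher. Neural progenitor markers (4 genes) summed to 281.5 to 330.0 CPM against 259.6 to 885.5 CPM, and Pax6 was called higher. The others were not called. Sox3 had a lower mean in knockouts (32.1 CPM, controls 44.4 CPM), and Nes (296 CPM, controls 170 CPM) and Sox1 (71.0 CPM, controls 60.9 CPM) higher ones. Trophoblast markers (5 genes, 4 tested) summed to 79.1 to 152.2 CPM against 26.1 to 94.6 CPM, and Cdx2 was called higher. Cdx2 spread widely between knockout lines, from 0.515 to 19.7 CPM, against 0.242 to 0.911 CPM in controls. Mean levels of Krt8 (28.2 against 79.6 CPM) and Tfap2c (15.9 against 25.4 CPM) were lower in knockouts, and that of Eomes was higher (3.90 against 1.83 CPM). Feeder fibroblast markers (8 genes, 7 tested) summed to 142.3 to 192.5 CPM against 135.4 to 205.6 CPM, with Postn called lower in knockouts. Among those not called, Col3a1 (32.6 CPM, controls 14.6 CPM) and Fbn1 (42.2 CPM, controls 22.2 CPM) had higher means in knockouts. Col1a1 had a lower one (48.1 CPM, controls 81.3 CPM). Germ cell markers (5 genes) summed to 42.3 to 79.3 CPM against 67.5 to 84.2 CPM with 0 called. No marker was at 0 in all samples of a group, and Elf5, a defining trophoblast gene, was at 0.0521 CPM or less throughout. The part of these cells in the day 3 levels of the members was not tested.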

How the data were processed

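Stranded libraries came from polyadenylated RNA, per the labels' protocols. The authors deposited raw counts per Ensembl transcript for 72 libraries, and the submitters' processing notes name bcl2fastq 2.17.1.14, STAR 2.4.0k, SAMtools, HTSeq and mm10. The use of strand, the annotation release and the counting of multiple matches are not given in the sources used here. Of 110379 transcripts, 108309 matched GENCODE M21 (GRCm38), and the rest held 1.43 to 2.46% of counts and were left out. A gene was represented by its transcript with the highest total, since transcripts of a gene share reads. The 4 technical replicates agree within sampling noise (chi-square per degree of freedom 1.01 to 1.03) and were added up.

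The test was edgeR 4.0.16 under R 4.3.3, with TMM scaling, filterByExpr, and a robust quasi-likelihood fit of the 6 groups and a term for HM1-derived or blastocyst-derived background, on all 18 samples with 11 residual degrees of freedom. P-values were adjusted by the Benjamini-Hochberg method over all 18279 genes and called below 0.05. The fit was tested on simulated counts. CPM use TMM-scaled library sizes. P-values measure the spread between these samples. The knockout samples of a day differ in line, whereas the HM1 controls of a day share a line and entered the fit as separate samples. The p-values therefore hardly cover spread between control lines. The 3 days of a series are samples of the same cell line, which pairs them across days, and the main fit took them as independent. Deviations from the group means of same-series samples correlated above 0.1 in 15 of 18 pairs of days (-0.129 to 0.476). Alternatives were other scaling, DESeq2 1.42.0, other filters and ways to form a gene, no background term, subsets of samples, and a replicate block.

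The members and gene lists were chosen with earlier results of these data known. The text names the 7 members, the 8 genes of the two-cell list called between genotypes that had the highest mean CPM, called regulators, and the 10 genes most like the members with a symbol that is not a predicted name.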

Additional observations from a re-analysis of the deposited data

How the results depend on the processing

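The 18 alternative settings were chosen with earlier results known, and those for the day 3 minus day 2 difference and for the two-cell list were added after seeing the data. Of the 6 tested members, 4 were called at day 3; the count was 2 when a group mean of 1 CPM or more was required (4 tested), 1 in HM1-derived lines alone, 2 with only the samples of that day (4 tested), 6 by DESeq2's Wald test and 6 without the day 2 sample of line 19. With each series left out in turn it ran from 0 to 3. From day 0 to day 2 the controls had 4 calls (2 with the CPM minimum, 1 to 4 with a series left out) and the knockouts 5 (3 and 0 to 5). From day 2 to day 3 the knockouts had 4 (2 in HM1-derived lines alone, 2 with the samples of those days alone, 2 without line 19 at day 2, 1 to 4 with a series left out). The 16 two-cell genes called higher at day 3 became 6 in HM1-derived lines alone, 10 with copies added up and 0 to 17 with a series left out. With copies added up, each member takes the value of its sum: 2 members, Tcstv1 and Tcstv3, were then called in controls from day 2 to day 3 and 2 in the day 3 minus day 0 difference.

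With the series as a replicate block, which pairs samples between days, the counts of members called were 4 and 5 from day 0 to day 2 and 0 and 4 from day 2 to day 3 in controls and knockouts, and 0 in each difference between days, so the block changed no count. The block cannot be fitted beside the genotype at a single day.

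No called value changed sign. The signs that changed belong to uncalled values. With copies added up, Tcstv took 0.40 in the genotype difference at day 0, Zscan4c -0.34 from day 2 to day 3 in controls, and Zscan4c and Zscan4f -0.26 in the day 2 minus day 0 difference. In that difference, Zscan4c had -0.09 and Zscan4f -0.86 in HM1-derived lines alone, Zscan4f -0.41 with all transcripts added up, and Tmem92 -0.01 without line 19 at day 2. With a series left out, it ran from -0.01 to 1.61 for Zscan4c, -1.54 to 0.03 for Zscan4d, -0.67 to 0.56 for Zscan4f and -0.17 to 0.52 for Tmem92. The same ranges were -0.0008 to 1.44 for Tmem92 and -0.06 to 0.89 for Zfp352 in the genotype difference at day 0, and -0.0038 to 1.31 for Zscan4d and -2.37 to 0.08 for Zfp352 at day 2. They were -0.40 to 0.08 for Zscan4f and -1.16 to 0.38 for Tcstv3 from day 2 to day 3 in controls.

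Depth limits Tcstv1, Tcstv3 and Zfp352 most, with 17, 106 and 223 counts over 18 samples. The 3 samples a group, the shared sequence of the Zscan4 copies and the single pair of blastocyst-derived lines limit the rest. Where a call was lost the cause was not tested, other than fewer genes or samples in the settings that say so.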
